A study of Mus musculus with 8 samples.

Results

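Lamina associated domains (LADs) of 3T3-L1 preadipocytes were set against those of 3T3-L1 adipocytes that had been made while Tmem120a was knocked down. Of the 8 DamID samples of the series, 4 enter this pair, a Dam sample and a LaminB1-Dam sample for each condition, and each pair of samples gave 1 list of LADs. The preadipocytes were labelled untreated and undifferentiated (day 0), with no shRNA named. The knockdown cells were labelled differentiated (day 9), carried Tmem120a shRNA in a stable line, had been induced with insulin, dexamethasone, IBMX and rosiglitazone, and received the Dam lentivirus from day 6. Every condition was measured with 1 sample per construct, so replicate error is not known for any value and no test was made. A difference between the lists cannot be told apart from a difference between 2 cultures. Differentiation, the shRNA and the loss of Tmem120a enter this pair together and cannot be told apart within it. By one description of the protocol DNA was taken 2 days after transduction from preadipocytes and 3 days after it from adipocytes, so the time for methylation may differ too, although the detailed methods and the labels each give 1 time for both. The adipocyte list with control non-target shRNA (day 9) is therefore printed beside named genes, and both comparisons share the preadipocyte list.

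A gene was called released when its body met a LAD in preadipocytes and none in the knockdown, and recruited when it met a LAD in the knockdown and none in preadipocytes. Of 22367 protein-coding genes, 901 (4.03%) were released and 1180 (5.28%) were recruited, 4964 met a LAD in both lists and 15322 in neither. They were chosen by overlap alone, so each count describes the 2 lists.

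The nuclear lamina is a meshwork of lamins under the inner nuclear membrane, and LADs are the long, mostly gene-poor stretches of chromatin that touch it. Genes in LADs are usually silent, and some move away from the lamina or towards it when a cell takes on a new identity. Tmem120a (also called NET29) encodes a membrane protein of the nuclear envelope that is found in fat. 3T3-L1 is an established mouse fibroblast line that fills with lipid droplets when treated with an adipogenic hormone mix. In DamID the bacterial methylase Dam is tied to LaminB1 and methylates adenine in the sequence GATC, so contact can only be read at GATC sites. The lists hold positions without scores, so the strength and the depth behind a LAD are unknown, and DamID does not read RNA, so cell identity could not be checked by expression.

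The grain of the measurement can be seen at the borders of the stretches that hold Cd36 and Axin2, which are shown because both genes were covered whole by a preadipocyte LAD and not at all by a knockdown LAD. Each line gives the plus strand of NCBIM37 (the mm9 assembly), 5′ to 3′, with the GATC at the border in capitals. Among all borders, 97.8% of 7828 in the preadipocyte list and 98.6% of 11446 in the knockdown list sat on such a site.
Cd36 stretch, lower border, chr5:17283587-17283630: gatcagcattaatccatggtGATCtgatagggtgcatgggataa
Cd36 stretch, upper border, chr5:17512313-17512356: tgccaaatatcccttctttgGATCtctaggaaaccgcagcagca
Axin2 stretch, lower border, chr11:108749529-108749572: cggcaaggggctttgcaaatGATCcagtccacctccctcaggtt
Axin2 stretch, upper border, chr11:108955079-108955122: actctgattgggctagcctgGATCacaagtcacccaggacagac

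The first question was where the LADs of the 2 lists differed. The preadipocyte list held 3914 LADs (1192.5 Mb, median 83.2 kb) and the knockdown list 5723 LADs (1163.9 Mb, median 59.1 kb), so the knockdown had more and shorter domains over a similar length. LADs of preadipocytes alone made up 5152 released stretches of 160.0 Mb, or 13.4% of the preadipocyte LAD length. LADs of the knockdown alone made up 4271 recruited stretches of 131.4 Mb, or 11.3% of the knockdown LAD length. A stretch was short in either direction, with a median of 21.4 kb for released and 23.7 kb for recruited stretches, and the median stretch held 56 and 59 GATC sites. The longest were 316.9 kb and 317.0 kb.

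The 2 directions differed in how they met the LADs that both lists shared. Of the released stretches, 965 (18.7%, 45.8 Mb) were whole LADs of preadipocytes that the knockdown list lacked, 2292 (44.5%, 65.2 Mb) lay at 1 side of a shared LAD, and 1895 (36.8%, 49.0 Mb) were gaps between pieces of shared LAD. Of the recruited stretches, 1626 (38.1%, 62.4 Mb) were whole LADs that the preadipocyte list lacked, 1898 (44.4%, 47.5 Mb) lay at 1 side, and 747 (17.5%, 21.5 Mb) filled a gap. By number of stretches, whole LADs were thus a smaller share of the released than of the recruited, but this order rested on short LADs. With LADs of at least 100 kb the share of stretches touching a shared LAD was 83.9% for released and 85.9% for recruited, and the absent LADs numbered 372 of preadipocytes and 181 of the knockdown. The whole LADs that were lost had a median of 36.3 kb and those that were new a median of 31.2 kb, against 130.0 kb and 92.1 kb for the LADs of each list that met the other list. Of the 3914 preadipocyte LADs, 722 lay wholly in knockdown LADs, 2227 lay partly in them, and 1066 met more than 1 knockdown LAD. In shares, 24.7% of preadipocyte LADs were absent from the knockdown (95% Wilson interval 23.3% to 26.0%) and 28.4% of knockdown LADs were absent from preadipocytes (27.3% to 29.6%), intervals that cover counting error only.

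**Figure D1:**
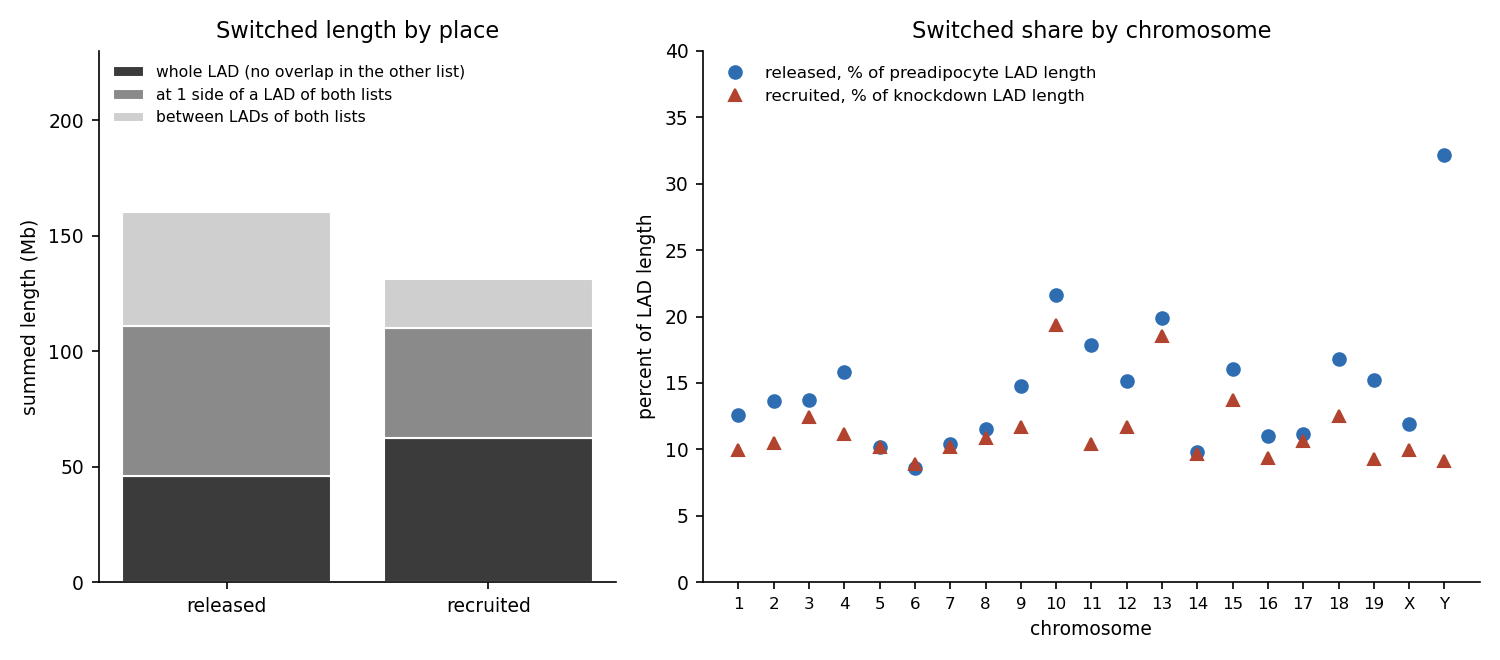
Left, summed length in Mb of released and recruited stretches, split into whole LADs absent from the other list, stretches at 1 side of a LAD of both lists, and stretches between LADs of both lists. Right, released length as a percent of preadipocyte LAD length (circles) and recruited length as a percent of knockdown LAD length (triangles) for each chromosome. Whole LADs made up 45.8 Mb of released and 62.4 Mb of recruited length, and chromosomes 10 and 13 had high shares in both directions.

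Released length exceeded recruited length on 20 of 21 chromosomes, the exception being chromosome 6, which had 6.30 Mb released and 6.55 Mb recruited. Chromosome 10 had the most turnover among the autosomes, with 21.6% of its preadipocyte LAD length released and 19.3% of its knockdown LAD length recruited, followed by chromosome 13 with 19.9% and 18.5%. Chromosome 6 had 8.59% and 8.90%. The Y chromosome, with 2.04 Mb of preadipocyte LADs, had 32.2% released and 9.16% recruited.

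Switched stretches had a base composition between that of shared LADs and that of the genome outside LADs. The G+C content was 41.4% in released and 41.1% in recruited stretches, against 39.3% in LADs of both lists and 43.9% outside LADs of both lists. GATC sites occurred at 2.58 per kb in released and 2.48 per kb in recruited stretches, against 2.61 and 2.42 per kb in those same classes. The stretches of either direction could thus be read at a similar number of sites per kb.

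The next question was which genes lay in these stretches and how much of each gene was involved. Released genes were mostly covered whole. Of the 901, 484 (53.7%) lay entirely in a preadipocyte LAD, and the start site lay in one for 692 (76.8%). Recruited genes were more often covered in part. Of the 1180, 391 (33.1%) lay entirely in a knockdown LAD, the median share was 48.9% of the gene body, and the start site lay in a LAD for 619 (52.5%).

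By any overlap, recruited genes were long. Their median length was 33.5 kb, against 14.3 kb for released genes, 8.47 kb for genes in LADs of both lists and 16.1 kb for genes outside both. Among genes of over 100 kb, 276 of 2401 (11.5%) were recruited and 108 (4.50%) were released, while among genes under 10 kb 326 of 8861 (3.68%) were recruited and 384 (4.33%) were released. The length did not hold for genes switched whole. Of the genes over 100 kb, 2 were recruited whole and 1 was released whole. Of those under 10 kb, 281 were recruited whole and 344 released whole.

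The balance between release and recruitment depended on the rule. Under any overlap recruited genes outnumbered released genes, with 1180 against 901. By the start site there were 771 recruited and 945 released, and by at least 50% of the gene body 760 and 827. Genes wholly in a LAD in one list and wholly outside in the other numbered 484 released (2.16% of all) and 391 recruited (1.75%). Without LADs shorter than 100 kb there were 450 recruited and 842 released. Of the recruited genes, many thus met only short knockdown LADs. A total of 805 of the 1180 (68.2%) met only knockdown LADs that the preadipocyte list lacked, against 385 of 901 (42.7%) for released genes in the opposite sense. The knockdown LAD that held a recruited gene had a median of 47.5 kb, and the preadipocyte LAD that held a released gene one of 92.9 kb. Among genes named below, Myf5, Gria1, Myh2, Syne2, Hoxd1, Smad9, Parm1, Myom2, Bmp5, Unc5a, Lce1l, Kdr and Pik3cb did not keep their state when LADs shorter than 30 kb were left out. With LADs of at least 100 kb, 62 of the 128 genes named did not keep it, among them Lemd3, Smad4, Ror2, Fzd3, Dkk2, Grik4, Mmp7, Mmp10, Fgf9, Sema3c, Abca6 and Kcnj5.

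**Figure D2:**
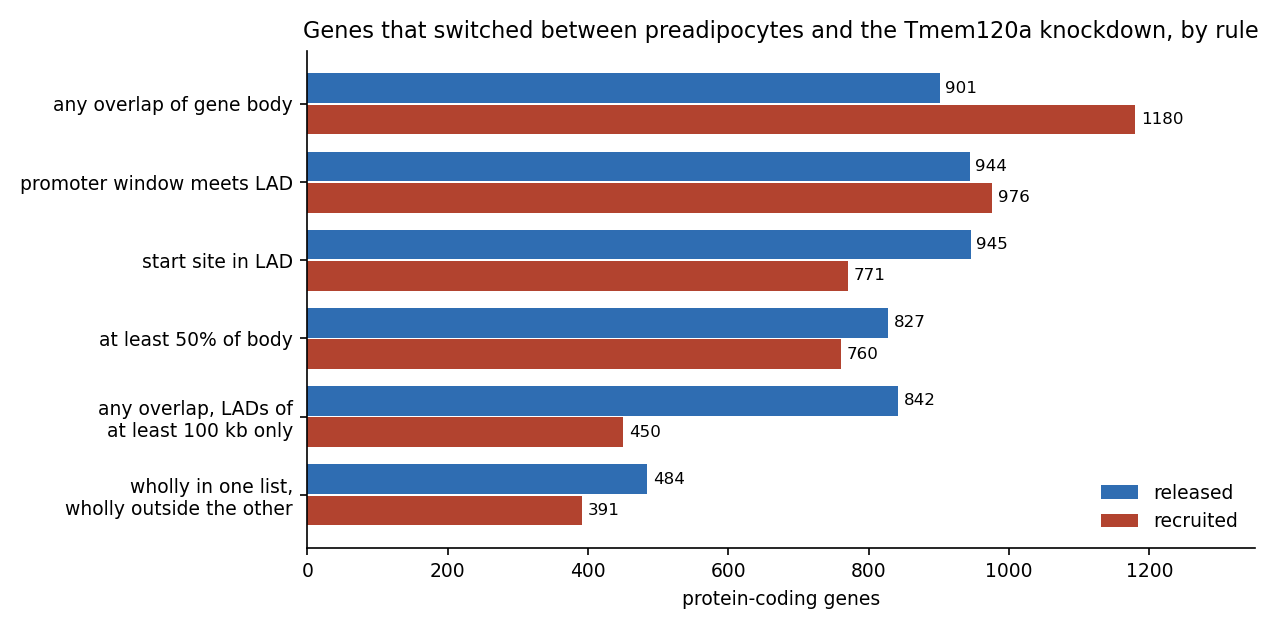
Number of protein-coding genes released (blue) and recruited (red) between preadipocytes and the Tmem120a knockdown, under 6 rules for a gene in a LAD. Recruited genes outnumber released genes under any overlap of the gene body (1180 against 901) and with a promoter window (976 against 944), and the order is the opposite under the other 4 rules.

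The control adipocyte list gave a different balance against the same preadipocyte list. There, 1076 genes (4.81%) were released and 420 (1.88%) were recruited by any overlap, and 469 and 235 were wholly released and wholly recruited. The control adipocyte list held 2542 LADs (1197.9 Mb, median 103.1 kb) and the knockdown list 5723 (1163.9 Mb, median 59.1 kb). How far this difference in number and length of LADs shapes the gene counts was not tested. Whether the 2 comparisons differed by more than the spread between cultures was not tested, for want of replicates.

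Distance along the chromosome to the nearest LAD was taken in the list that lacked the gene. A recruited gene lay a median of 65.9 kb from the nearest preadipocyte LAD, 508 of them (43.1%) at least 100 kb away and 93 at least 1 Mb away. A released gene lay a median of 30.2 kb from the nearest knockdown LAD, 198 (22.0%) at least 100 kb away and 7 at least 1 Mb away. Most switched genes stood alone, 511 of the released and 636 of the recruited, while 390 released genes (43.3%) and 544 recruited genes (46.1%) had a neighbour that switched the same way, in runs of up to 11 and 10 genes.

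Genes of fat metabolism were mostly outside LADs in both lists. In the lists of fat synthesis and lipid storage 3 of 45 and 1 of 43 were released, shares on either side of the 4.03% of all genes. Cd36 encodes the scavenger receptor through which fat cells take up long-chain fatty acids. The gene (chr5:17287508-17394777) had 100% of the gene body within LADs in preadipocytes, 0% in the knockdown and 0% in control adipocytes. It sat in a whole LAD of 229 kb that the knockdown list lacked, and its nearest knockdown LAD was 175 kb away. Sema3c, which encodes a secreted semaphorin and lies next to Cd36 (chr5:17080099-17236086), had 48.0%, 0% and 0%, with its nearest knockdown LAD 334 kb away. A stretch of chromosome 5 with both genes was thus free of knockdown LADs, as the map of the Cd36 locus shows.

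Pck1 encodes the cytosolic phosphoenolpyruvate carboxykinase, which makes the glycerol backbone of stored fat in adipocytes. It (chr2:172978549-172984774) was covered 100% by a preadipocyte LAD and 0% in the knockdown and in control adipocytes. Elovl2 (chr13:41277864-41315774) and Elovl4 (chr9:83672300-83699912), enzymes that lengthen very long fatty acids, showed the same values. The nearest knockdown LAD lay 148 kb from Pck1, 696 kb from Elovl2 and 75.7 kb from Elovl4. The preadipocyte LADs of Pck1 and Elovl2 were short, at 92.7 kb and 53.1 kb, so these calls were lost with LADs of at least 100 kb, and that of Elovl4 was kept. These 3 were all the members of the list of 45 genes of fatty acid and triglyceride synthesis that met a preadipocyte LAD, so 6.67% of the list was released against 4.03% of all genes.

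Acaca was the recruited member of that list. It encodes acetyl-CoA carboxylase 1, which makes malonyl-CoA for fatty acid synthesis. Of its body (chr11:83943174-84215153), 0% lay in a LAD in preadipocytes, 18.5% in the knockdown and 0% in control adipocytes. The stretch was a new LAD of 50.3 kb inside the gene that did not reach the start site, and the nearest preadipocyte LAD was 875 kb away. This call too was lost with LADs of at least 100 kb.

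**Figure D3:**
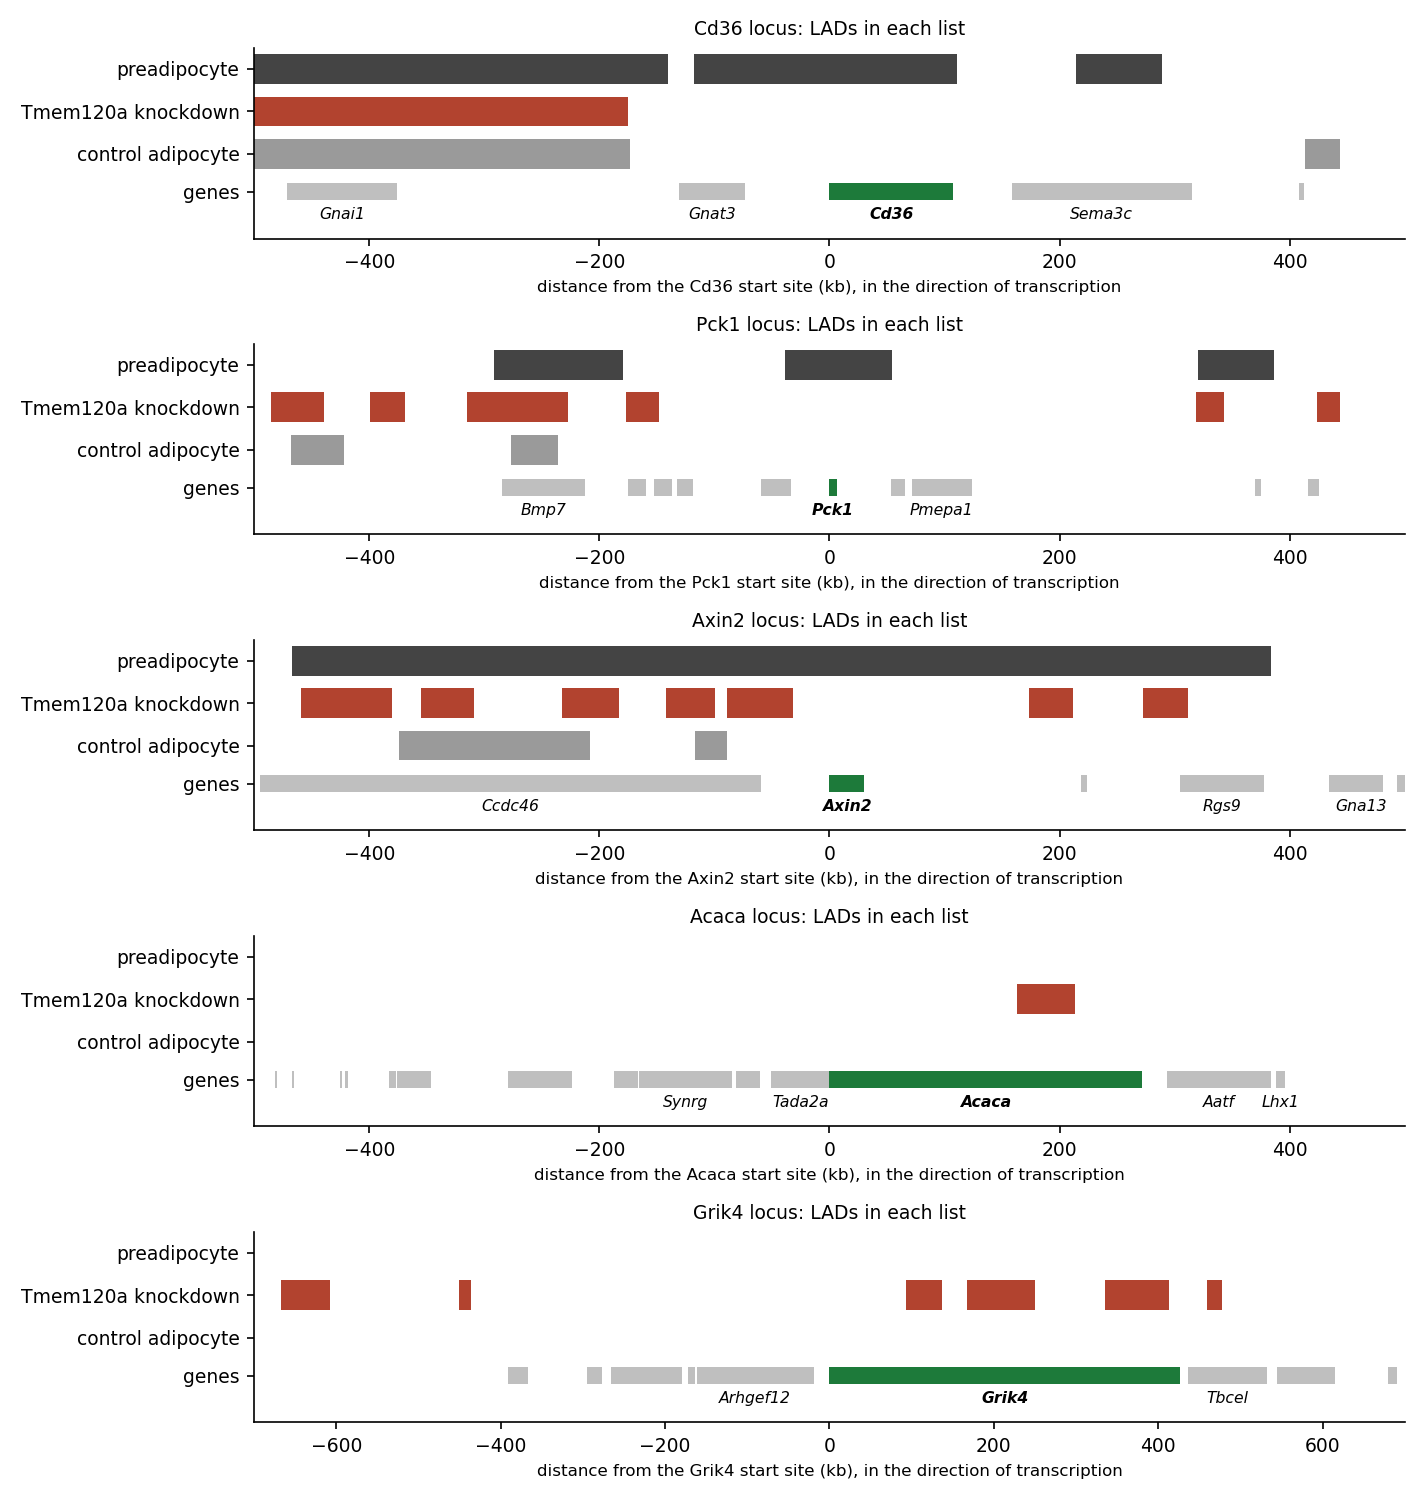
LADs (bars) in the preadipocyte, Tmem120a knockdown and control adipocyte lists around Cd36, Pck1, Axin2, Acaca and Grik4, as distance in kb from each gene's start site in the direction of transcription; the gene is green and its neighbours grey. Cd36, Pck1 and Axin2 lie in a preadipocyte LAD and outside knockdown LADs, and Acaca and Grik4 hold knockdown LADs where the preadipocyte list has none.

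Of the 43 genes of lipid storage and adipokines, Cd36 was the released member (2.33%) and none was recruited. Itln1 and Rbp4, an adipokine pair named after their values were seen, were the other members in LADs, each with 100% of its body in both lists of the pair. In control adipocytes Itln1 had 100% and Rbp4 had 0%. Of 8 adipocyte markers, 7 lay outside LADs in the preadipocyte, knockdown and adipocyte lists, and Cd36 was the exception. The 7 preadipocyte or fibroblast markers and the 5 skeletal muscle markers also lay outside LADs in the 3 lists. Among macrophage markers, Emr1 had 100% of the gene body within LADs in all 3 lists and Ptprc had 51.7% in preadipocytes and 100% in the knockdown. The other 2 of the 4 macrophage markers lay outside. Of 4 endothelial markers, Kdr (57.6%, 0% and 0%) and Cdh5 (3.40%, 0% and 0%) were released and Tek met a LAD in all 3 lists. The promoter window of Kdr went the opposite way, with a share 20.8 percentage points higher in the knockdown.

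Adipogenic transcription factors were almost all outside LADs. Of 41, 2 met a preadipocyte LAD and both were released, a share of 4.88% that is near the 4.03% of all genes. Prdm16, which drives the brown and beige fat programme, had 21.7% of the gene body within LADs in preadipocytes and 0% in the knockdown and in control adipocytes. Nfia, a nuclear factor I gene active in brown fat, had 15.2%, 0% and 0%. For Prdm16 the promoter window from 10 kb before to 15 kb after the start lay in a LAD in preadipocytes alone, whereas for Nfia the window lay outside LADs in both lists.

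Genes of mitochondrial fuel use contributed 2 released (4.44%, near the 4.03% of all genes) and 1 recruited (2.22% against 5.28%) of 45. Suclg2, a subunit of the GTP-linked succinyl-CoA synthetase, had 20.7% of the gene body within LADs in preadipocytes and 0% in the knockdown. Ak4, a mitochondrial adenylate kinase, had 17.3% and 0%. Sucla2, the counterpart of Suclg2 in the ATP-linked enzyme, went the opposite way with 0% and 14.3%. All 3 had 0% in control adipocytes.

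Insulin and IGF signalling had 3 released and 4 recruited members of 43, or 6.98% and 9.30% against 4.03% and 5.28% of all genes. Pde3b, the phosphodiesterase through which insulin restrains lipolysis, had 60.0% of the gene body within LADs in preadipocytes and 0% in the knockdown. Igfbp2, an IGF binding protein, had 42.6% and 0%, and Grb10, an adaptor that dampens the insulin receptor, had 33.3% and 0%. Each of these 3 had 0% in control adipocytes. The recruited members were held in part only, and 3 of the 4 are over 100 kb long, a class of which 11.5% were recruited among all genes. Pik3cb and Pik3ca, catalytic subunits of PI3-kinase, had 28.6% and 18.3% of their bodies in a knockdown LAD. Grb14, an adaptor related to Grb10, had 26.9%, and Tbc1d4, which gates the glucose transporter vesicles, had 9.91%. Of the recruited genes in this group Grb14 alone met a LAD in control adipocytes, at 20.5%.

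The genes that the study followed one by one gave a mixed picture. Of 17, 4 were released (Sema3c, Ak4, Pla2g12a and Myh2), none was recruited, 7 met a LAD in both lists and 6 in neither. The released share was 23.5% against 4.03% of all genes, and the recruited share 0% against 5.28%. The study chose these genes on these samples, so their count is not independent evidence of a direction. Pla2g12a, a secreted phospholipase gene, had 22.1% of the gene body within LADs in preadipocytes, 0% in the knockdown and 0% in control adipocytes. Trim55, a muscle ubiquitin ligase gene, had 97.4%, 0.121% and 0%, so it missed the call by a sliver.

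The members that met a LAD in both lists differed in how much of the gene was covered. Fh1, which encodes the fumarate hydratase of the citric acid cycle, had 100% of the gene body within LADs in preadipocytes and in the knockdown and 0% in control adipocytes. Jazf1 had 21.5%, 20.2% and 0%, and Parm1 had 17.9%, 27.5% and 0%. Among the muscle genes, Ano5 had 43.9%, 75.2% and 100%, Unc13c had 54.1%, 68.9% and 100%, and Myo18b had 100%, 73.0% and 100%. Tmem120a and Tmem120b themselves lay 1690 kb and 2150 kb from the nearest preadipocyte LAD and 1743 kb and 2537 kb from the nearest knockdown LAD.

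The Wnt pathway is known to restrain adipogenesis, and 7 of its 68 listed genes (10.3% against 4.03% of all genes) were released while 2 (2.94% against 5.28%) were recruited. Control adipocytes, against the same preadipocyte list, had 7 released and none recruited, where 4.81% and 1.88% of all genes were. Axin2, a scaffold of the complex that degrades beta-catenin and a classic Wnt target, had 100% of the gene body (chr11:108781663-108812097) within LADs in preadipocytes and 0% in the knockdown and in control adipocytes. Its preadipocyte LAD was broken into pieces in the knockdown, and Axin2 fell in a gap of 206 kb between pieces. Dkk1, a secreted Wnt inhibitor, had 100%, 0% and 0%, and Dkk2, its relative, had 33.3%, 0% and 0%. The receptor gene Fzd10 had 100%, 0% and 100%, but sat in a gap of 16.0 kb that closed when gaps under 20 kb were closed. Of the recruited members, the receptor genes Ror2 and Fzd3 had 50.8% and 34.1% of their bodies in a knockdown LAD and 0% in the other 2 lists. Fzd3 lay 1254 kb from the nearest preadipocyte LAD.

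BMP, activin and TGF-beta genes had 5 released (6.67% against 4.03% of all genes) and 2 recruited (2.67% against 5.28%) of 75. Gdf6, a BMP family ligand, had 100% of the gene body within LADs in preadipocytes and 0% in the knockdown and in control adipocytes. Bambi, a decoy receptor, had 67.2%, 0% and 0%. Acvr1c, which encodes the receptor ALK7 of fat cells, had 59.3%, 0% and 36.1%, and Bmp5 had 19.6%, 0% and 0%. The recruited members were both signal transducers. Smad4, the SMAD that BMP and TGF-beta signals share, had 59.5% of its body in a knockdown LAD and 0% in the other lists. Smad9 had 34.6% in the same pattern, through a LAD of 15.8 kb that the filter at 30 kb removed.

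Fibroblast growth factors and receptors had 3 released of 32 (9.38% against 4.03% of all genes) and none recruited (5.28% of all genes), counts too small to set the list apart. Fgf16 had 100% of the gene body within LADs in preadipocytes and 0% in the knockdown and in control adipocytes. Fgf9 had 100%, 0% and 69.5%. Fgf10, a growth factor of the adipose stroma, had 14.6%, 0% and 0%. Of the 40 Hox genes, which set position along the body axis, Hoxd1 (100%, 0% and 0%) and Hoxd13 (41.0%, 0% and 0%) were released and none was recruited, a released share of 5% that is near that of all genes.

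Of 43 collagen genes none was released and 5 were recruited (11.6% against 5.28% of all genes), all in part. The 5 were genes of over 100 kb, a class of which 11.5% were recruited among all genes. Of the 4 with the highest shares, Col6a4 had 43.6% of the gene body within LADs in the knockdown, Col6a6 had 33.6%, Col23a1 had 30.1% and Col13a1 had 23.6%, against 0% of each in preadipocytes. In control adipocytes Col6a4 had 18.5%, Col6a6 had 18.8%, and the other two had 0%. Col13a1 lay 1092 kb from the nearest preadipocyte LAD.

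Matrix proteases showed both directions side by side. Of 47 Adamts and Mmp genes, 3 were released (6.38% against 4.03% of all genes) and 7 recruited (14.9% against 5.28%). Control adipocytes had 2 released and 6 recruited, where 4.81% and 1.88% of all genes were released and recruited. A cluster of matrix metalloproteinase genes lies on chromosome 9. In it Mmp3 (stromelysin 1) had 59.1% of the gene body within LADs in preadipocytes and 0% in the knockdown. Mmp10 (stromelysin 2) had 0% and 100%, and Mmp7 (matrilysin) had 0% and 100%. All 3 had 100% in control adipocytes, so of the 3 it was at Mmp3 that the knockdown and the control adipocytes stood on opposite sides.

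**Figure D4:**
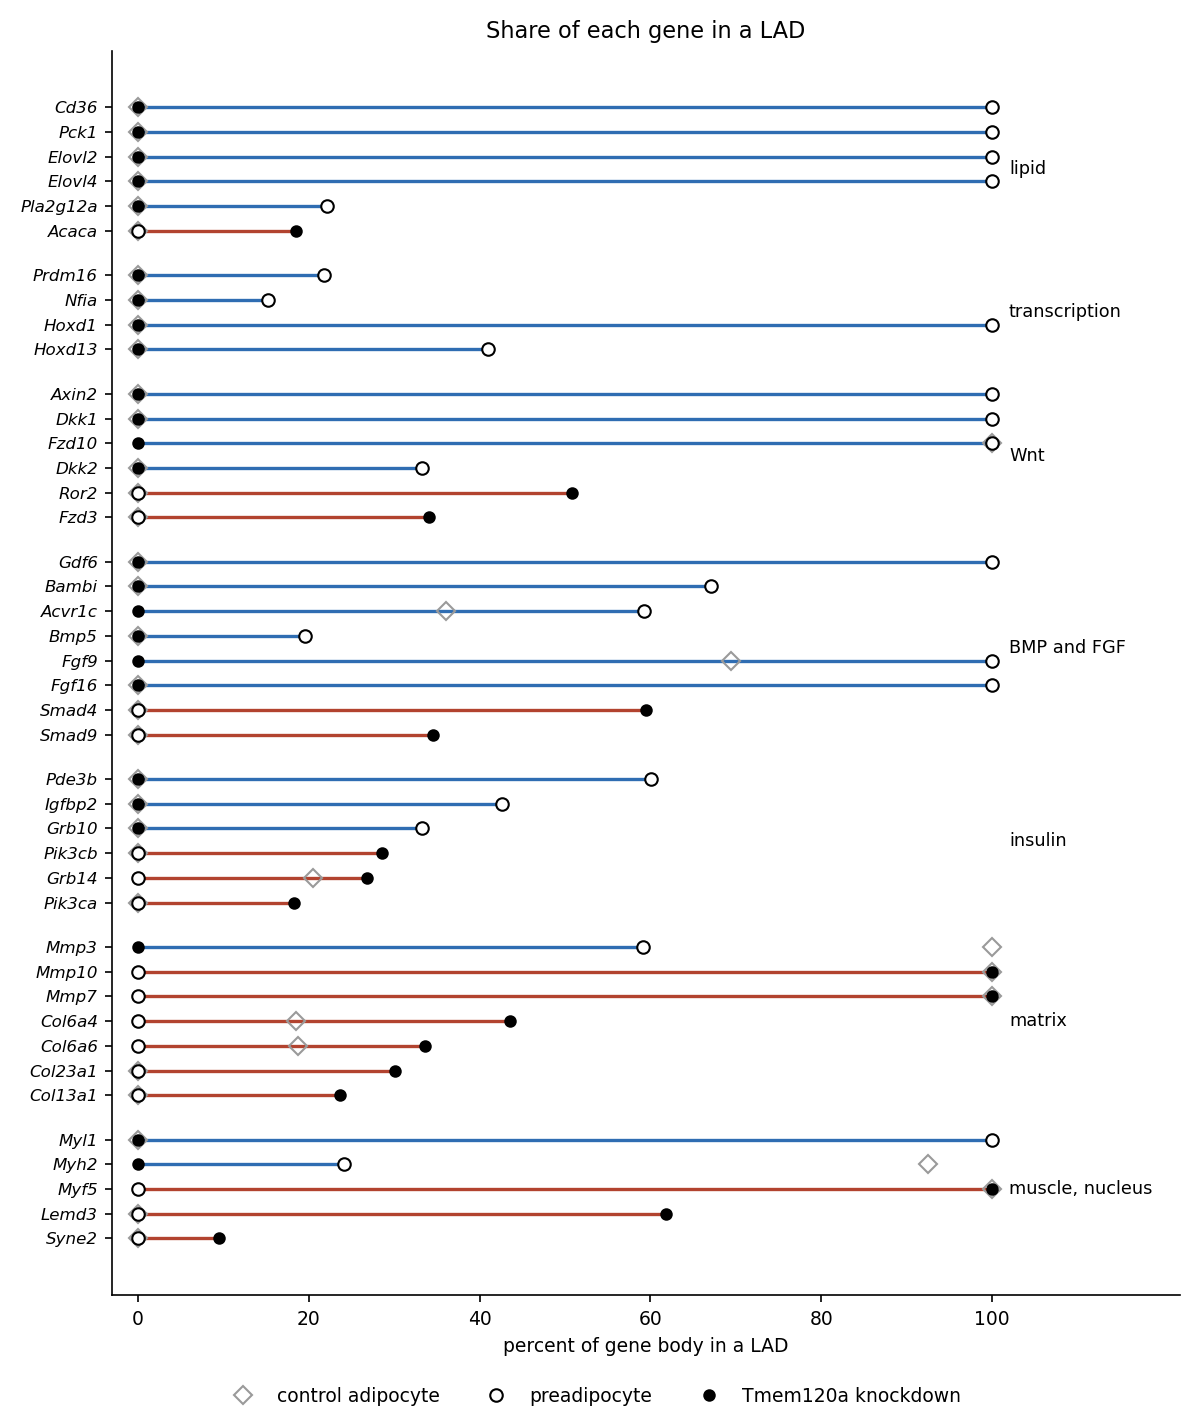
Percent of the gene body in a LAD for 42 named genes in preadipocytes (open circles), the Tmem120a knockdown (filled circles) and control adipocytes (diamonds); lines join preadipocytes to the knockdown, blue for released and red for recruited. Released genes of lipid and signalling groups often run from 100% to 0%, whereas recruited genes other than Mmp10, Mmp7 and Myf5 reach at most 61.9%.

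Muscle sarcomere and myogenic genes had 3 released and 3 recruited of 91, near or below the share of all genes. Myl1, a myosin light chain gene of fast muscle, had 100% of the gene body within LADs in preadipocytes and 0% in the knockdown and in control adipocytes. Smyd1 had 31.8%, 0% and 0%. Myh2, a fast myosin heavy chain gene, had 24.1%, 0% and 92.6%. Myf5, a factor that commits cells to muscle, had 0%, 100% and 100%, through a knockdown LAD of 23.6 kb. Myom2, a protein of the sarcomere's M-band, had 0%, 20.8% and 61.6%. A further 20 muscle genes met a LAD in both lists of the pair.

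The list of 31 genes of the nuclear envelope and lamina had no released member. It had 2 recruited ones, a share of 6.45% that is near the 5.28% of all genes. Sun5, which the list left out, was released (100%, 0% and 0%), with a knockdown LAD 0.082 kb away. It was not among the 128 genes read under other settings. Lemd3 encodes MAN1, a LEM protein of the inner nuclear membrane that binds SMADs. Its body (chr10:120360469-120416388) had 0% in a LAD in preadipocytes, 61.9% in the knockdown and 0% in control adipocytes, and its promoter window lay outside LADs in both lists of the pair. Syne2, which encodes the outer membrane linker nesprin-2, had 0%, 9.46% and 0%.

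Neuronal genes are common in LADs of non-neuronal cells. Of 48 glutamate and GABA receptor genes, 30 met a LAD in both lists, 2 were released and 2 recruited. Each was 4.17%, near the 4.03% and 5.28% of all genes. Of the 32 in a preadipocyte LAD 6.25% were thus released, against 15.4% of all such genes, and of the 16 outside 12.5% were recruited, against 7.15%. Grm6 had 100% of the gene body within LADs in preadipocytes and 0% in the knockdown and in control adipocytes, and Gabrr3 had 52.2%, 0% and 100%. Grik4, a kainate receptor gene, had 0%, 47.7% and 0%. Grik4 held 3 separate knockdown LADs although the nearest preadipocyte LAD lay 2292 kb away. Gria1 had 0%, 5.48% and 0%.

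Potassium channel genes had 8 released (8.33% against 4.03% of all genes) and 10 recruited (10.4% against 5.28%) of 96, a difference that was not tested. Kcnmb4 and Kcna2 had 100% of the gene body within LADs in preadipocytes and 0% in the knockdown and in control adipocytes. Kcna6 and Kcnk9 had 100%, 0% and 100%. A knockdown LAD lay close to Kcna2 (7.82 kb), Kcna6 (0.902 kb) and Kcnk9 (5.69 kb). Kcnj5, Kcna5 and Kcnmb3 had 0%, 100% and 0%. Kcnmb3 shares its new LAD of 39.5 kb with Pik3ca. Of 41 sodium and calcium channel genes, 3 were released (7.32%) and 2 recruited (4.88%). Cacng5, a calcium channel subunit gene, had 100%, 0% and 0%. Scn3a had 0%, 100% and 100%, at a distance of 2.49 kb from a preadipocyte LAD.

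Among cell adhesion and guidance genes both whole genes and parts of genes switched. Cadherins and protocadherins had 4 released (6.78% against 4.03% of all genes) and 5 recruited (8.47% against 5.28%) of 59. Of the 34 in a preadipocyte LAD 11.8% were released, against 15.4% of all such genes. Of the 25 outside 20% were recruited, against 7.15%. Pcdhb22 and Pcdh8 had 100%, 0% and 100%, while Pcdhb3, Pcdhb4 and Pcdhb5 had 0%, 100% and 100%. The list of neurexins, neuroligins and contactins, which was drawn by symbol pattern and also took in Il1rap and Lrrc41, had 1 released (1.82%) and 4 recruited (7.27%) of 55. Slitrk2 had 0%, 100% and 100%, and Dlgap3 had 69.1%, 0% and 0%. Semaphorins, plexins and axon guidance genes had 4 released (5.33%) and 5 recruited (6.67%) of 75, near the shares of all genes, with Epha7 at 0%, 21.7% and 100% and Unc5a at 21.9%, 0% and 0%.

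Immune genes were read against 4.03% released and 5.28% recruited among all genes. Of 58 chemokine and receptor genes, 4 were released (6.90%) and 1 recruited (1.72%). Cxcl14 and Cxcl13 had 100% of the gene body within LADs in preadipocytes and 0% in the knockdown and in control adipocytes. Of 106 interleukin and interferon genes, 8 were released (7.55%) and 5 recruited (4.72%). Il10ra, which encodes a chain of the interleukin-10 receptor, had 100%, 0% and 0%, whereas Il10, its ligand, had 0%, 100% and 0%.

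Chemosensory receptor genes largely stayed in LADs. Of 1113 olfactory receptor genes, 977 met a LAD in both lists, 37 were released (3.32%) and 33 recruited (2.96%). Of 331 vomeronasal receptor genes, 306 met a LAD in both, 4 were released (1.21%) and 7 recruited (2.11%). Zinc finger genes named Zfp had 22 released (5.93%) and 23 recruited (6.20%) of 371. Solute carriers had 17 released (4.59%) and 20 recruited (5.41%) of 370. Against 4.03% and 5.28% of all genes, the receptor families had lower shares and solute carriers similar ones. Zfp genes had a higher released share and a recruited share near that of all genes, and neither was tested. Most receptor genes were in LADs from the outset, so few could be recruited. Of those outside preadipocyte LADs, 33.3% of 99 olfactory and 33.3% of 21 vomeronasal genes were recruited, against 7.15% of all such genes. Of those in a preadipocyte LAD, 3.65% of 1014 olfactory and 1.29% of 310 vomeronasal genes were released, against 15.4% of all such genes. Defensins and taste receptors had 2 released (2.20%) and 2 recruited (2.20%) of 91, and cytochromes P450 had 6 (6.12%) and 5 (5.10%) of 98. Serpins had 5 released (8.33%) and 3 recruited (5%) of 60, and keratins with their associated proteins had 6 (6%) and 4 (4%) of 100. Of those in a preadipocyte LAD, 14.3% of 35 serpins and 10% of 60 cytochromes P450 were released, below the 15.4% of all such genes. Of those outside, 12% of 25 serpins and 13.2% of 38 cytochromes P450 were recruited, against 7.15%. Serpine2, a protease inhibitor gene, had 77.7%, 0% and 0%.

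**Figure D5:**
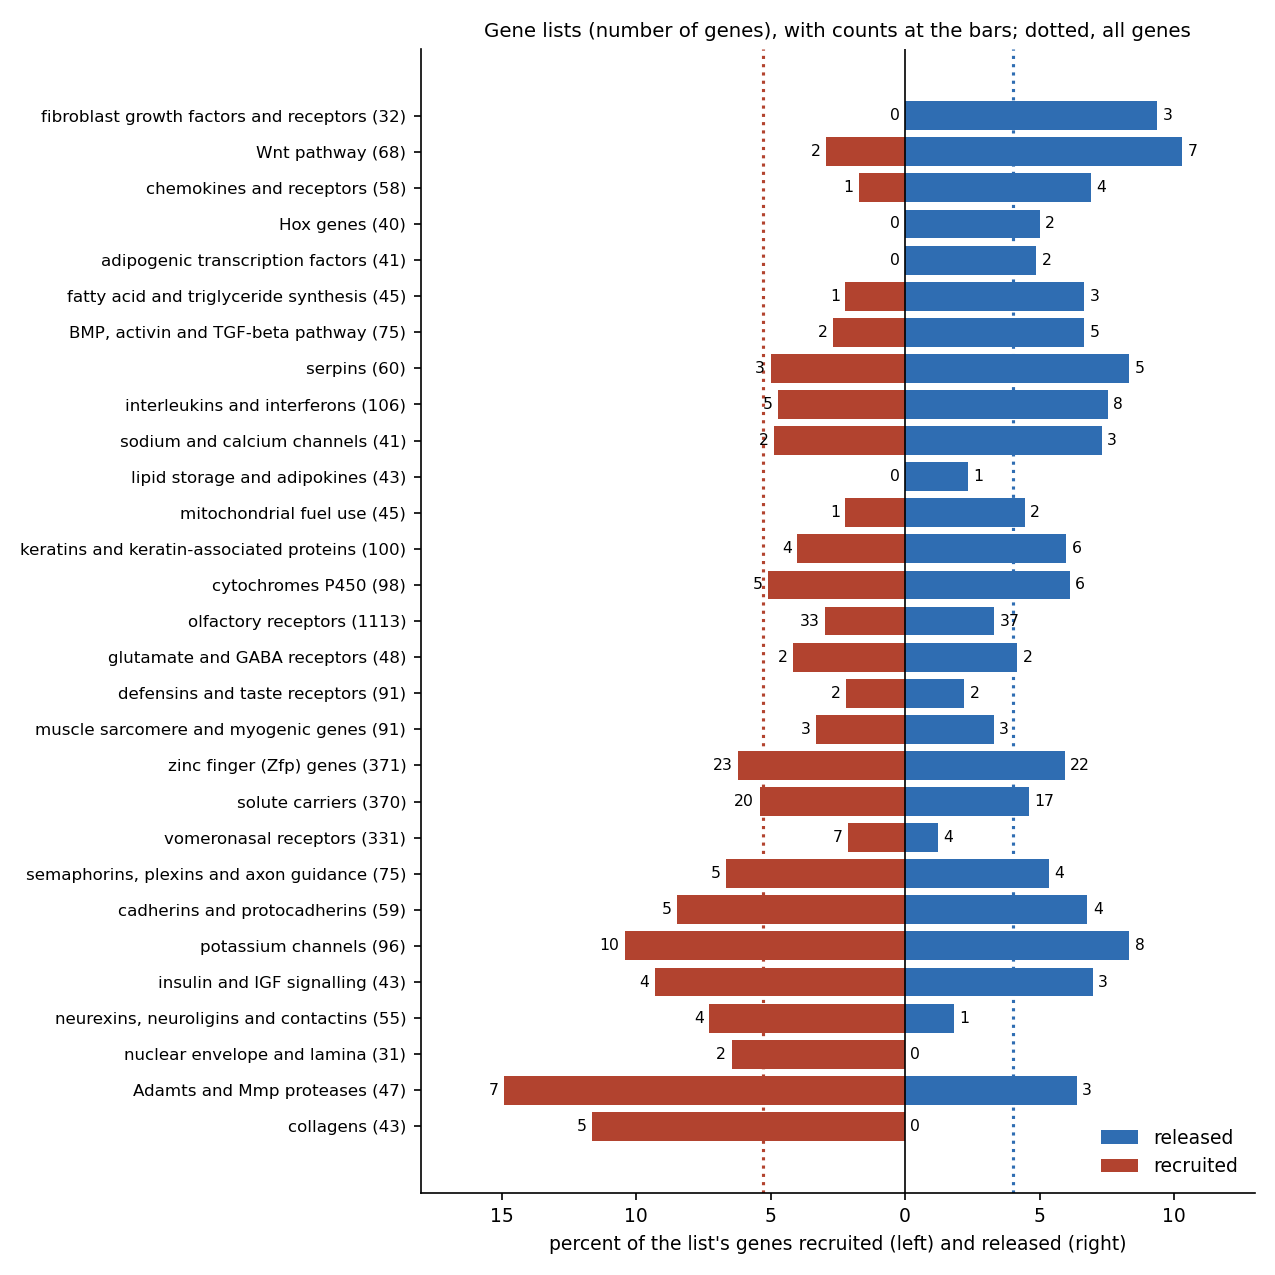
Percent of the genes of 29 lists that were recruited (red, to the left) and released (blue, to the right) between preadipocytes and the Tmem120a knockdown, with counts at the bars, list sizes in brackets and dotted lines at the shares of all protein-coding genes (5.28% and 4.03%). Wnt pathway genes have 7 released and 2 recruited, and collagens have none released and 5 recruited; the lists were not tested.

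The longest genes that switched whole lay at very different distances from a LAD of the other list. Among those released were Snap25, a synaptic vesicle fusion protein, with its nearest knockdown LAD 231 kb away, and Abca6 and Abca9, neighbouring lipid transporter genes on chromosome 11, 273 kb and 357 kb away. Ildr2, Ankrd5, Zcwpw2, Kcnmb4 and Shank3 completed this set with Cd36 and Nrk, and Ildr2 and Ankrd5 lay only 4.24 kb and 19.1 kb from a knockdown LAD. Of these 10, Nrk alone lay in a LAD in control adipocytes, at 100%, and the others had 0%. Among those recruited, Ero1lb, an oxidase of protein folding, lay 197 kb from the nearest preadipocyte LAD, Gtf3c3, a subunit of transcription factor IIIC, 110 kb, and Terf1, which binds telomere repeats, 22.4 kb. St8sia5, Btc and Dnajc24 were also recruited whole, Dnajc24 at 13.6 kb from a preadipocyte LAD. These 6 had 0% of the gene body within LADs in control adipocytes. Hdx, Scn3a, Sprr2a3 and Tnip3 had 88.7%, 100%, 100% and 100% there, and Scn3a and Tnip3 lay 2.49 kb and 9.04 kb from a preadipocyte LAD.

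Some stretches switched several genes together. A recruited LAD of 149 kb on chromosome 13 (chr13:23931336-24080276), which the preadipocyte list lacked, held the sodium phosphate transporter genes Slc17a1, Slc17a3 and Slc17a4, the histone genes Hist1h2ba and Hist1h2aa, and Scgn. None of these 6 met a LAD in control adipocytes. A recruited stretch of 134 kb on chromosome 3 (chr3:92520016-92654196) held Kprp and 6 late cornified envelope genes of skin, of which 5 were recruited and Lce1l met a LAD in both lists. On chromosome 11 the keratin-associated protein cluster was cut both ways. A released stretch of 74.3 kb with 11 genes was followed by a recruited stretch of 46.5 kb with 8 genes and a released stretch of 53.1 kb with 6 genes. A released stretch of 121 kb on chromosome 7 (chr7:126845458-126966057) met Acsm3 and Acsm4, enzymes that activate medium-chain fatty acids, with Thumpd1, Eri2 and a gene without a function name. Acsm4 kept 48.6% of the gene body within LADs in the knockdown, and Acsm3, Thumpd1 and Eri2 were covered 100% and 0%.

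The longest stretches held few protein-coding genes. The 3 longest released stretches, of 316.9, 291.8 and 290.9 kb, met none. The longest recruited ones met Fam135b and Col22a1 (317.0 kb), Hecw1 (281.6 kb) and Klhl1 (238.6 kb). Fam135b had 0% of the gene body within LADs in preadipocytes, 76.7% in the knockdown and 100% in control adipocytes, and Hecw1 had 0%, 78.3% and 97.6%.

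Promoters of switched genes were intermediate in CG content. In the 300 bases from 250 before to 50 after the annotated start, genes in LADs of both lists had a median of 2 CG dinucleotides and genes outside both had 16. Released genes had 7 and recruited genes 10. The split was sharper by the part that switched. Genes released whole had a median of 4 and genes recruited whole also 4, whereas genes released in part had 12 and genes recruited in part had 17, the latter close to genes outside LADs. A split by the start site was similar. With the start in a LAD, released and recruited genes each had 6, and with it outside they had 13 and 18. Genes switched whole have their start in the LAD by definition, so the 2 splits cannot be told apart. Promoters with 5 or fewer CG made up 55.6% of genes released whole, 61.4% of genes recruited whole, 26.1% of genes released in part, 21.5% of genes recruited in part and 34.3% of all genes.

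The promoter of Axin2 is shown as a released gene far above the median, with CG in capitals, 5′ to 3′ on the gene's strand in NCBIM37. This window (chr11:108781413-108781712, plus strand) had 31 CG and 70.0% G+C.
Axin2: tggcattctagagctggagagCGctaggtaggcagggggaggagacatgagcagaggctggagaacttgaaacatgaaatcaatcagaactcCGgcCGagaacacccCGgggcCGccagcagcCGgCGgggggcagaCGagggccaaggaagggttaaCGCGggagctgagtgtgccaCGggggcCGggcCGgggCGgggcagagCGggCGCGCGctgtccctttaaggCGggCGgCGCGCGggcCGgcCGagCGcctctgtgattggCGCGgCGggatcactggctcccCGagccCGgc
The start lay in a preadipocyte LAD and outside knockdown LADs.

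Of 1577 annotated microRNA genes, 519 met a preadipocyte LAD, against 5865 of 22367 protein-coding genes. By any overlap 111 of the microRNA genes were released (7.04%) and 78 recruited (4.95%), against 4.03% and 5.28% of protein-coding genes. The balance turned for those that lay whole in a LAD and at least 10 kb from any LAD of the other list, with 43 released and 63 recruited. Among protein-coding genes too, more of the released (24.6%) than of the recruited (14.9%) lay within 10 kb of a LAD of the other list. RefSeq mature sequences were matched by symbol for 406. The sequences below belong to the microRNAs that the study traced, that lay in a preadipocyte LAD and that had a matched sequence, with 1 arm of each, and to Mir466j, the recruited gene farthest from a preadipocyte LAD. They are RNA, 5′ to 3′, with the seed (bases 2 to 8) in capitals, from the table for GRCm38.p6.
miR-216a-5p: uAAUCUCAgcuggcaacuguga
miR-690: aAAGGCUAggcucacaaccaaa
miR-340-5p: uUAUAAAGcaaugagacugauu
miR-466j: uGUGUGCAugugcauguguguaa
The 4 seeds differ from one another.

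Mir216a (chr11:28657012-28657083) and Mir690 (chr16:28600021-28600129) had 100% in a LAD in preadipocytes, 0% in the knockdown and 100% in control adipocytes. Their nearest knockdown LADs were close, at 2.13 kb and 5.73 kb. Mir467b, inside Sfmbt2, had the same 3 values with a knockdown LAD 0.322 kb away, while its cluster mates Mir467c, Mir467d and Mir467e had 100% in all 3 lists. Mir340 (chr11:49883204-49883301), inside Rnf130, had 100% in preadipocytes and in the knockdown and 0% in control adipocytes. Mir466j (chr10:60423471-60423592) had 0%, 100% and 0%, and the nearest preadipocyte LAD lay 2111 kb away. Mir181a-1, Mir181a-2, Mir201 and Mir710 lay outside LADs in both lists of the pair, and in control adipocytes Mir181a-1 and Mir201 had 100% and the other two 0%.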

How the data were processed

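LaminB1-DamID was carried out in 3T3-L1 cells. Per the submitters' processing notes reads were mapped to mm9 with BWA, and limma was also used. Per the study's methods the log2 ratio of LaminB1-Dam to Dam was taken for each DpnI fragment and LADs were called by segmentation (DNAcopy 1.46.0). The authors deposited LADs as start and end positions, with no score, count or log2 value. Each list was tied to its condition by its abbreviation. The double knockdown list and the lists of differential regions were not used here.

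Overlaps were computed by bp with numpy 2.4.6 and pandas 2.3.3 in Python 3.11.15, and plotted with matplotlib 3.10.9. Starts count from 1, reading the lists as counting from 0. Genes came from GENCODE vM1, sequence from NCBIM37. Gene counts are of annotated entries, so a symbol with separate entries is counted for each of them, as in the potassium channel and muscle lists. The arithmetic was tested on simulated data. Intervals of shares are 95% Wilson intervals (scipy 1.17.1) over LADs for absent LADs and over stretches for touching shares. Neither LADs nor stretches are independent.

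The members and the 29 gene lists were chosen with earlier results of these data known. Named genes are all study genes, up to 4 per list and direction with the largest change in percent of the gene body, the 10 longest switched whole in each direction, genes of the 3 longest stretches and of the 3 with most genes in each direction, cell type markers, and microRNAs by distance. Of the listed symbols, 6 were not in the annotation. Alternatives were the part of the gene counted, LAD and stretch length, closed gaps and the genes counted. Some items that the naming rule takes are not reported here.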

Additional observations from a re-analysis of the deposited data

How the results depend on the processing

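No paired analysis was possible because no condition has a replicate. A count or length is called moved when it changes by over 1.5 times, and a share when it leaves its 95% Wilson interval. Of 13 alternatives, 11 left released genes at 679 to 945, the lowest being genes at least 10 kb from any knockdown LAD, while 484 switched whole and 1740 were counted over all annotated genes. Of 13 alternatives, 8 left recruited genes at 906 to 1182, while they numbered 760 by at least 50% of the gene body, 771 by the start site, 391 switched whole, 450 with LADs of at least 100 kb and 1846 over all annotated genes. With LADs of at least 100 kb the recruited length was 74.9 Mb, the preadipocyte LADs absent from the knockdown numbered 372 and the knockdown LADs absent from preadipocytes 181. These knockdown LADs numbered 977 with LADs of at least 30 kb, and those preadipocyte LADs 589 with gaps under 50 kb closed. The share of released stretches touching a LAD of both lists (81.3%, interval 80.2% to 82.3%) was 82.6% and 83.9% with LADs of at least 30 and 100 kb, 79.3% and 77.8% with gaps under 20 and 50 kb closed, and 74.6% and 69.3% for stretches of at least 10 and 30 kb. For recruited stretches (61.9%, interval 60.5% to 63.4%) it was 69.1% and 85.9% with those LAD lengths, and 52.4% and 48.2% for those stretch lengths. The Jaccard index of the 2 lists was 0.778 to 0.803 under its alternatives. Of 128 genes named in the text, 115 kept their state with LADs of at least 30 kb, 66 with at least 100 kb (Cd36, Axin2, Dkk1, Elovl4 and Prdm16 among them, Pck1, Elovl2, Acaca, Lemd3, Smad4 and Ror2 not), 127 with gaps under 20 kb closed, all but 7 with gaps under 50 kb closed (Pcdhb3, Pcdhb4, Pcdhb5, Kcna2, Fzd10, Mmp3 and Slitrk2), and 88 in the promoter window. In the promoter window 39 of the 128 had another state and 1 was reversed. The difference for Kdr, in percentage points of knockdown minus preadipocyte, was -57.6 over the gene body and 20.8 in the promoter window. Fewer LADs enter under a length filter by construction; the cause of the other shifts was not tested. The lists carry no depth, so a weak LAD cannot be told from a strong one.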

Other observations

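Genes that do not code for protein also switched. Of 5201 pseudogenes, 376 were released (7.23%) and 236 recruited (4.54%), against 4.03% and 5.28% of protein-coding genes. More pseudogenes could be released, as 2708 of the 5201 met a preadipocyte LAD, against 5865 of the 22367 protein-coding genes. Of 1273 lincRNA genes, 49 were released (3.85%) and 38 recruited (2.99%), and of 1552 snoRNA genes 56 (3.61%) and 69 (4.45%). A preadipocyte LAD was met by 191 of the lincRNA and 650 of the snoRNA genes. The shares are of all genes of a type, not of those that could be released. Immunoglobulin variable genes mostly stayed, as 335 of 355 met a preadipocyte LAD and 3 were released.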
